A study of Mus musculus with 6 samples.

Results

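Interferon-induced effectors are the proteins that a cell makes after interferon binds its receptors, and their RNAs were followed here in mouse embryonic fibroblasts (MEF) that lack TIA1 or TIAR. Members were all probes of the array whose gene symbol belongs to the Ifi, Ifit, Ifitm, Gbp or Isg series with a number, or is Mx1, Mx2, Rsad2, Usp18, Bst2, Iigp1, Igtp, Irgm1, Tgtp1, Xaf1 or Cmpk2. This gave 44 genes with 64 probes, of 34797 gene names with 55681 probes on the array. Where a gene had more than 1 probe, the brightest over the 6 arrays stands for it.

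TIA1 and TIAR (encoded by Tial1) are related RNA-binding proteins that act on splicing, stability and translation of RNA. The cells were immortalized MEF, and RNA of WT MEF (strain W4), TIA1 KO MEF (BALB/c, TIA1 knockout) and TIAR KO MEF (C57BL/6, TIAR knockout) was measured on 1-dye arrays, with 2 arrays for each group. No interferon, infection or other treatment is named in the labels, so the values are levels in cells as they were grown. Each genotype had its own strain, so an effect of the deletion cannot be told apart from one of strain or line, and how many lines of each genotype were used is not given in the sources used here. All 6 arrays lay on 1 slide, with both TIA1 KO arrays in another row than the others, so the row and the TIA1 deletion cannot be told apart either. The replicates are described as independent, and p-values measure only the spread between these samples, which may be technical.

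Type I interferons act through a cell surface receptor, and many of their target genes carry the interferon-stimulated response element (ISRE) in the promoter. Interferon gamma acts through another receptor, and its target genes often carry the gamma-activated site (GAS). Many of the effectors are also made at a low level without added interferon, and fibroblasts are a classic cell type in which the antiviral state was studied.

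The promoters of 30 of the 44 genes were present in the RefSeq promoter table of GRCm38.p6, as 35 windows of 250 bases before and 50 bases after an annotated start. The ISRE core was searched as GAAANNGAAA on both strands, and the GAS as TTCNNNGAA, which reads alike on both strands. An ISRE core lay in 16 of the 35 windows (45.7%, in 16 genes), against 3.44% of all 32851 windows in the table. A GAS lay in 11 windows (31.4%, in 11 genes), against 8.3% of all windows, and 2 of its 13 matches, in Bst2 and Ifitm3, shared bases with an ISRE core. Since the members were chosen by name as interferon-induced genes, these shares describe the list. The 200 bases before the start of 6 genes are printed 5′ to 3′ on the strand of the gene, with the ISRE cores in capitals. Isg15, Bst2, Rsad2 and Ifit1 are shown because they were called lower in TIAR KO MEF, Irgm1 because it was called higher in TIA1 KO MEF, and Ifit3 because it was called in neither.

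Isg15, chr4:156200819-156201018, minus strand: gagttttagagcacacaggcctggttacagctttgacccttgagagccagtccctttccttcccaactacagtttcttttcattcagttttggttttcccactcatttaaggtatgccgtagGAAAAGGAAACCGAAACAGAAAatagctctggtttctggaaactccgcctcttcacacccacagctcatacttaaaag
Bst2, chr8:71537473-71537672, minus strand: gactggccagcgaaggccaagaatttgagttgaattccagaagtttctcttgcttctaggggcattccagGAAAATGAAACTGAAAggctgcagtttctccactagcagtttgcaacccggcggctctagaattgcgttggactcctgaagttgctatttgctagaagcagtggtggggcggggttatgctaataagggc
Rsad2, chr12:26456453-26456652, minus strand: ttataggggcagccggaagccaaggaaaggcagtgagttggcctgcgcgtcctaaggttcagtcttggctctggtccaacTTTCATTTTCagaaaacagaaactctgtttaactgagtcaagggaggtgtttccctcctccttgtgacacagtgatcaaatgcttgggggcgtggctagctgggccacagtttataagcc
Ifit1, chr19:34640689-34640888, plus strand: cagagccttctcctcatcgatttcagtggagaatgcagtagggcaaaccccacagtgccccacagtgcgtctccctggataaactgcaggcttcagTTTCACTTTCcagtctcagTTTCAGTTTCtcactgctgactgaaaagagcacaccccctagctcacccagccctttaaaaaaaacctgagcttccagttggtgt
Ifit3, chr19:34583329-34583528, plus strand: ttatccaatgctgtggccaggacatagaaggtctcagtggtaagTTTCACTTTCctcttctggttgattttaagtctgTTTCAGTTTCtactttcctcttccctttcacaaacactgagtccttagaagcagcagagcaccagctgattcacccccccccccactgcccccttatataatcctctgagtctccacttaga
Irgm1, chr11:48871421-48871620, minus strand: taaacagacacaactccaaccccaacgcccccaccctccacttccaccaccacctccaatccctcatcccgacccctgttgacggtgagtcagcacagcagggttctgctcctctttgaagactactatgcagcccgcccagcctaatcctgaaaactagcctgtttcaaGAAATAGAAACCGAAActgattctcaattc

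The Isg15 promoter held 3 overlapping ISRE cores, Bst2 and Irgm1 held 2 overlapping cores each, Ifit1 and Ifit3 held 2 separate cores each, and Rsad2 held 1. A match is a description of the sequence, not a measured binding site. Both genes that fell and genes that were not called carried the core.

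**Figure D1:**
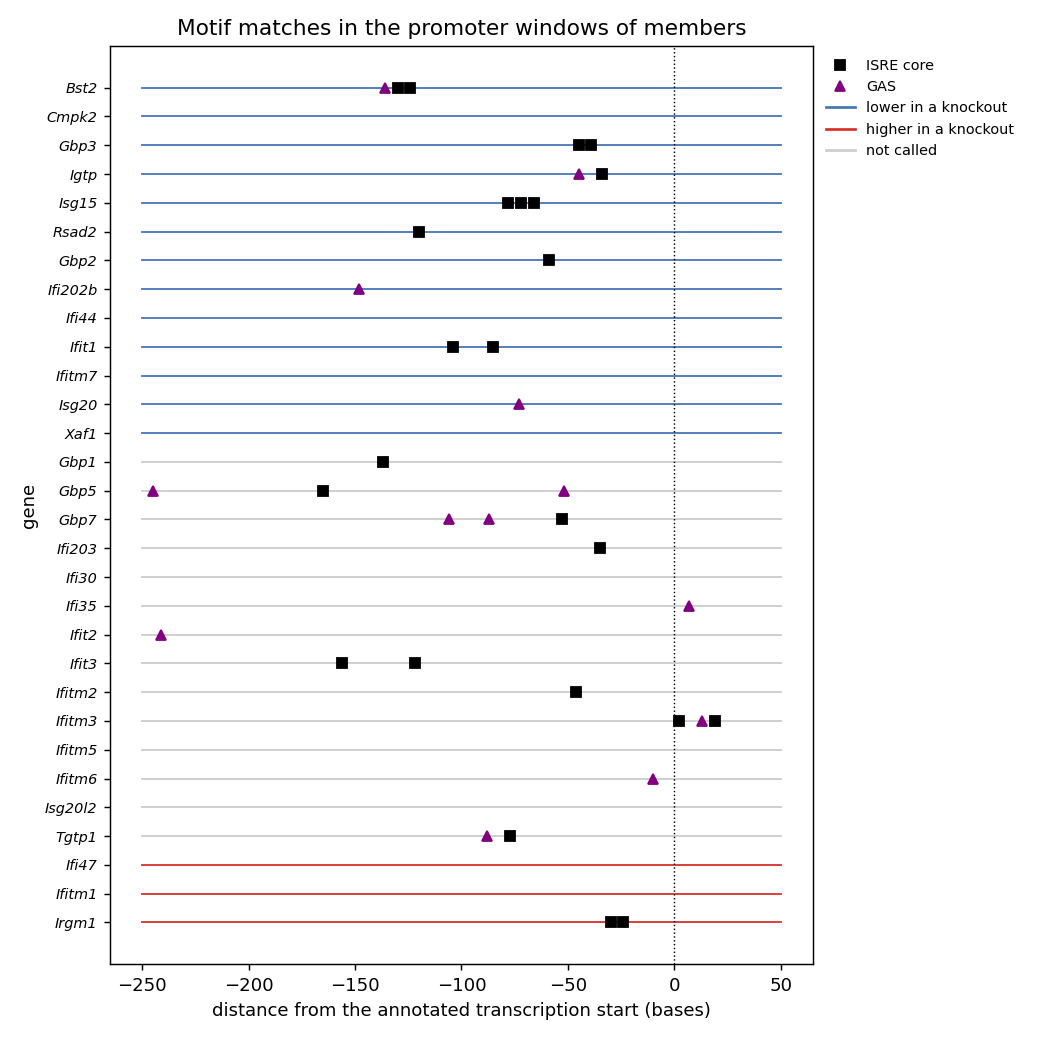
Positions of ISRE cores (squares) and GAS matches (triangles) in the promoter windows of 30 member genes, in bases from the annotated start on the horizontal axis, with several windows of a gene drawn on 1 line. Line colours mark genes called lower (blue), called higher (red) or not called (grey) in a knockout against WT MEF, and cores appear on lines of all 3 colours.

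In TIA1 KO MEF, 6 of the 10 genes called lower that had a window held an ISRE core, as did 9 of the 19 not called. In TIAR KO MEF the core was held by 6 of the 9 genes called lower and by 10 of the 19 not called.

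The signal of each array sets what could be measured. The median spot intensity, on the scanner's linear scale, was 152 and 140 for WT, 136 and 119 for TIAR KO, and 458 and 218 for TIA1 KO cells. Negative-control spots had medians of 112 and 103, 96.7 and 88.6, and 196 and 119 in the same order. Fewer probes were rated well above background by the scanner software for TIA1 KO cells (28.8% and 35.9%) than for WT cells (42.3% and 47.2%) or TIAR KO cells (44.5% and 46.7%). Of the 44 member genes, 33 and 35 had such signal in WT cells, 16 and 22 in TIA1 KO cells and 28 and 30 in TIAR KO cells. Over both arrays of at least 1 group, 35 genes passed this mark, and no gene was left out for failing it. All values that follow are normalized log2 intensities of a probe or differences between them, and the levels of different probes are not comparable. Sums over marker lists, given on the linear scale, are therefore to be compared between arrays only. A gene named as leading or brightest in such a list had the brightest probe, which need not mean the most RNA.

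The targeted genes were read first. The Tia1 probe had log2 intensities of 10.72 and 8.54 for WT, 7.87 and 8.44 for TIA1 KO and 9.56 and 9.58 for TIAR KO cells. It was not called in TIA1 KO MEF (log2 fold change -1.47 ± 0.79 SE, limma adjusted p = 0.288), where WT replicate 2 lay close to the knockout. The 2 other Tia1 probes went opposite ways in TIA1 KO MEF without a call, 1 with -1.62 ± 0.42 (adjusted p = 0.116) and the other, not well above background on the WT arrays, with 0.86 ± 0.28 (adjusted p = 0.149). The brightest Tial1 probe had 13.22 on the WT array that measured it, against 14.07 and 13.69 for TIA1 KO and 9.57 and 11.60 for TIAR KO cells. Its spot on WT replicate 1 was marked as an outlier and left out, so the difference of -2.63 ± 0.87 (SE) between TIAR KO and WT MEF rests on 1 WT array (limma adjusted p = 0.200). A second Tial1 probe, with 11.71 and 11.09 for WT and 10.00 and 9.65 for TIAR KO cells, was called lower in TIAR KO MEF (-1.58 ± 0.26, limma adjusted p = 0.0254). Whether these probes lie in the deleted parts of the genes is not given in the sources used here.

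Fibroblast markers were checked in the same way. Col1a1, Col1a2, Vim, Fn1 and S100a4 were bright in all groups, but Pdgfra was not well above background on either WT array and Col3a1 had only 9.52 and 9.08 in WT MEF, against 15.59 and 15.65 for TIA1 KO and 15.16 and 16.65 for TIAR KO cells. Of the 9 fibroblast markers, 6 were called higher in TIA1 KO cells and 7 in TIAR KO cells. Thy1 was well above background on 1 WT array and no TIA1 KO array, and had 14.84 and 14.74 in TIAR KO MEF. Summed over the list, the linear intensity was 533396 and 567019 for WT, 1314177 and 1289054 for TIA1 KO and 1340203 and 1360990 for TIAR KO cells, led by S100a4 or Col1a2. WT MEF thus had weak or no signal for Pdgfra and Thy1, both defining fibroblast markers, and the part of this difference in the results that follow was not tested. In bulk RNA, fewer cells of a type and less RNA per cell cannot be told apart.

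Markers of other cell types were read as well. Of 9 leukocyte markers, Ptprc, Emr1, Lyz2 and Fcgr1 were not well above background on any array, whereas Cd68, Itgam and Cd14 were on all and Csf1r on 5 of the 6. On each WT array 5 of the 9 were well above background. By its brightest probe Cd68 was called higher in TIAR KO than in TIA1 KO MEF (1.48 ± 0.15, limma adjusted p = 0.0264). In the same comparison Itgam (-1.66 ± 0.17, adjusted p = 0.0287) and Cd14 (-1.595 ± 0.151, adjusted p = 0.0235) were called lower by their brightest probes. The summed linear intensity of the 9 was 11591 and 10936 for WT, 21409 and 18968 for TIA1 KO and 10165 and 10077 for TIAR KO cells, led by Cd14 in WT MEF and by Itgam in the knockouts. Itgam was called higher in TIA1 KO MEF by its brightest probe (1.82 ± 0.24), while its 2 other, dim probes had -0.53 ± 0.32 and -0.78 ± 0.16 without a call. Cd14 (-1.32 ± 0.18) and Aif1 (at least 2.56-fold) were called lower in TIAR KO MEF. None of the 4 endothelial markers was called by its brightest probe, with summed intensities from 2847 to 3782 over the 6 arrays, Kdr the brightest, and Cdh5 not well above background on any array. A second, dimmer Kdr probe was called higher in TIAR KO MEF (at least 2.33-fold, limma adjusted p = 0.00708). Of 4 epithelial markers, Krt8 was called higher in TIA1 KO MEF, and Krt8, Krt18 and Cdh1 in TIAR KO MEF. Their sum was 681 and 701 for WT, 1041 and 1342 for TIA1 KO and 2221 and 2182 for TIAR KO cells, with Krt8 or Krt18 the brightest and Epcam near background in WT and TIAR KO MEF. The part of these genes in the results that follow was not tested.

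More interferon-induced effectors were called lower than higher in each knockout against WT MEF, and most of the 44 were not called. Isg15, Usp18, Rsad2, Cmpk2, Bst2, Ifi27l1, Ifi27l2a, Gbp3 and Igtp were called lower in each comparison. The log2 fold change in TIA1 KO and TIAR KO cells was, for example, -2.21 and -4.42 for Isg15 and -1.69 and -2.67 for Bst2. A probe was called where its limma adjusted p was under 0.05 and its change was more than 2-fold. Isg20, Gbp2, Ifi202b and Ifitm7 were called lower in TIA1 KO MEF, and Ifit1, Xaf1 and Ifi44 in TIAR KO MEF. Irgm1 was called higher in TIA1 KO MEF, and Ifi47 and Ifitm1 were called higher in TIAR KO MEF. The 2 comparisons share the WT arrays, so they are not independent of each other.

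In TIA1 KO MEF, 16 of the 64 member probes (25%) were called lower, against 1.36% of all probes. Only 2 member probes (3.12%), both of Irgm1, were called higher, against 2.18% of all probes. In TIAR KO MEF, 13 member probes (20.3%) were called lower, against 2.37% of all probes, and 3 (4.69%) higher, against 3.39% of all probes. Counted by gene, 13 of 44 were lower and 1 higher in TIA1 KO MEF, and 12 lower and 2 higher in TIAR KO MEF. Over the 44 genes the median log2 change stood at -0.85 in TIA1 KO MEF, where that of all probes was -0.09, and -0.28 in TIAR KO MEF, where that of all probes was -0.02. In TIA1 KO MEF 16 of the genes had only a limit, since they were not well above background on either array of 1 group, and with these at their limit the median was -0.52. In TIAR KO MEF 8 had only a limit, and the median stayed at -0.28. When any 1 array was left out, the fitted median ranged from -0.38 to -0.12 in TIAR KO MEF and from -0.98 to -0.75 in TIA1 KO MEF. The members were chosen with earlier results of these data known, so these figures describe the list.

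Without WT replicate 1 or without WT replicate 2, limma called 0 member probes and 0 of all probes in TIA1 KO MEF, while 25 and 31 member probes had an unadjusted p under 0.05. In these fits the spread came from the TIA1 KO arrays alone, and the lone WT array was assumed to vary like them. The log2 fold changes of the 14 called genes kept their sign and moved by at most 0.17. With the scanner software's processed signal 0 were called as well, and 41 had an unadjusted p under 0.05. In TIAR KO MEF, between 10 and 13 member probes were called lower when any 1 array was left out.

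**Figure D2:**
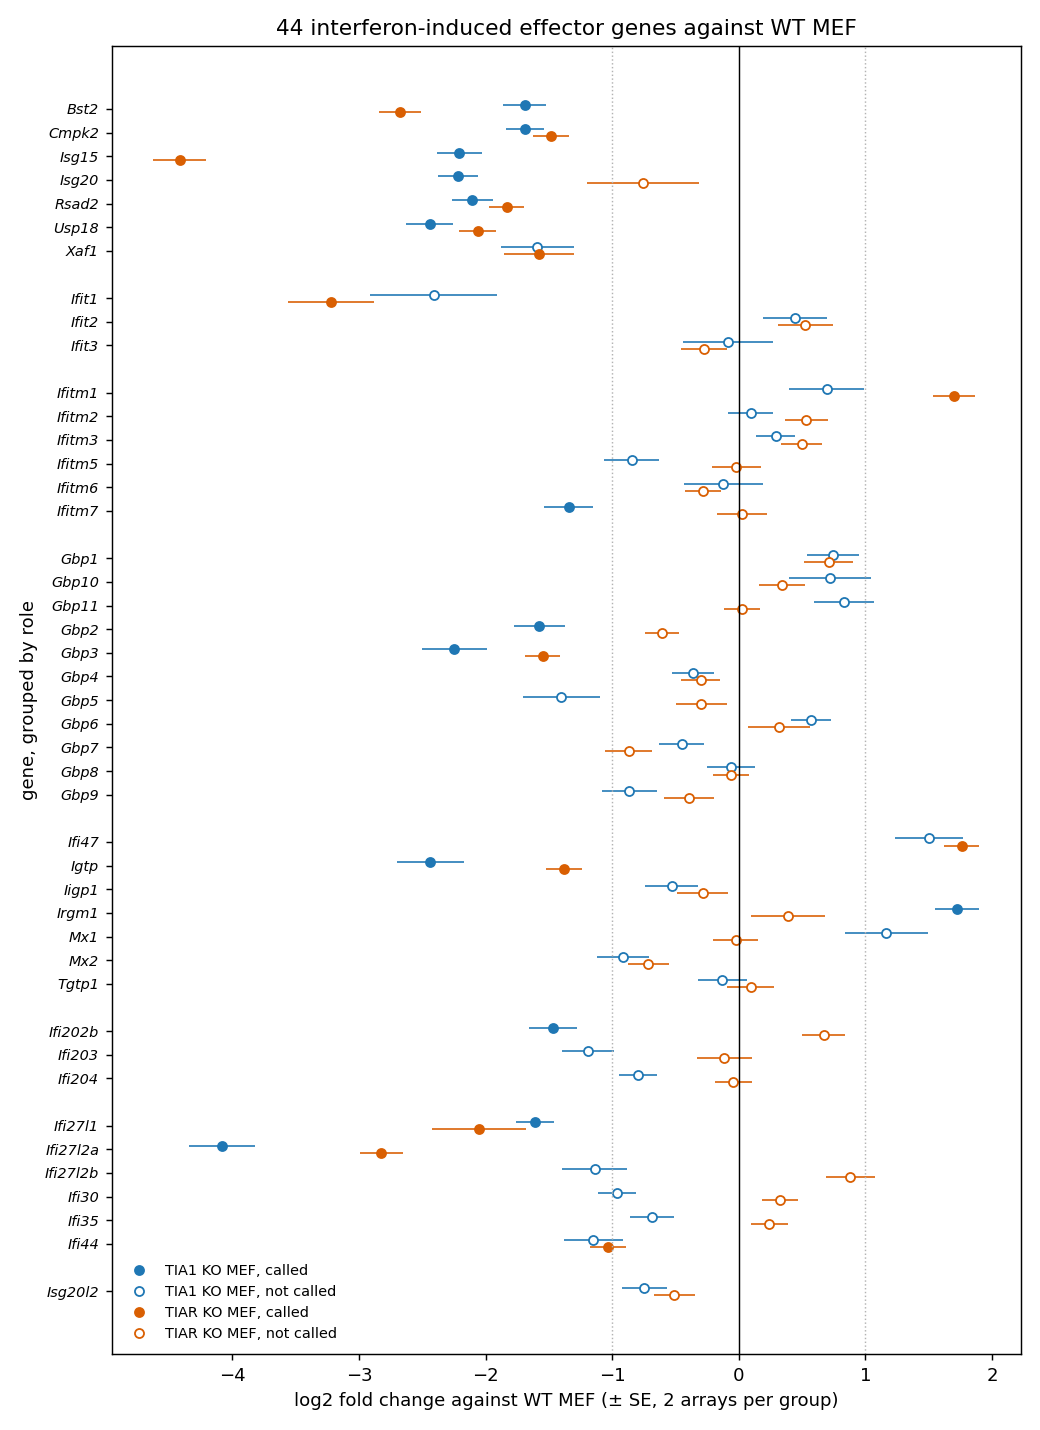
Log2 fold change against WT MEF (horizontal axis, ± SE, 2 arrays per group) of the 44 member genes by role, in TIA1 KO MEF (blue) and TIAR KO MEF (orange), with filled points for called genes and dotted lines at a fold change of 2. Fitted values are drawn, also for probes near background. The ISG15 system and other effectors (Bst2 to Xaf1) lie left of 0 in both knockouts, and the guanylate binding proteins and IFITM proteins lie on both sides.

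**Figure D3:**
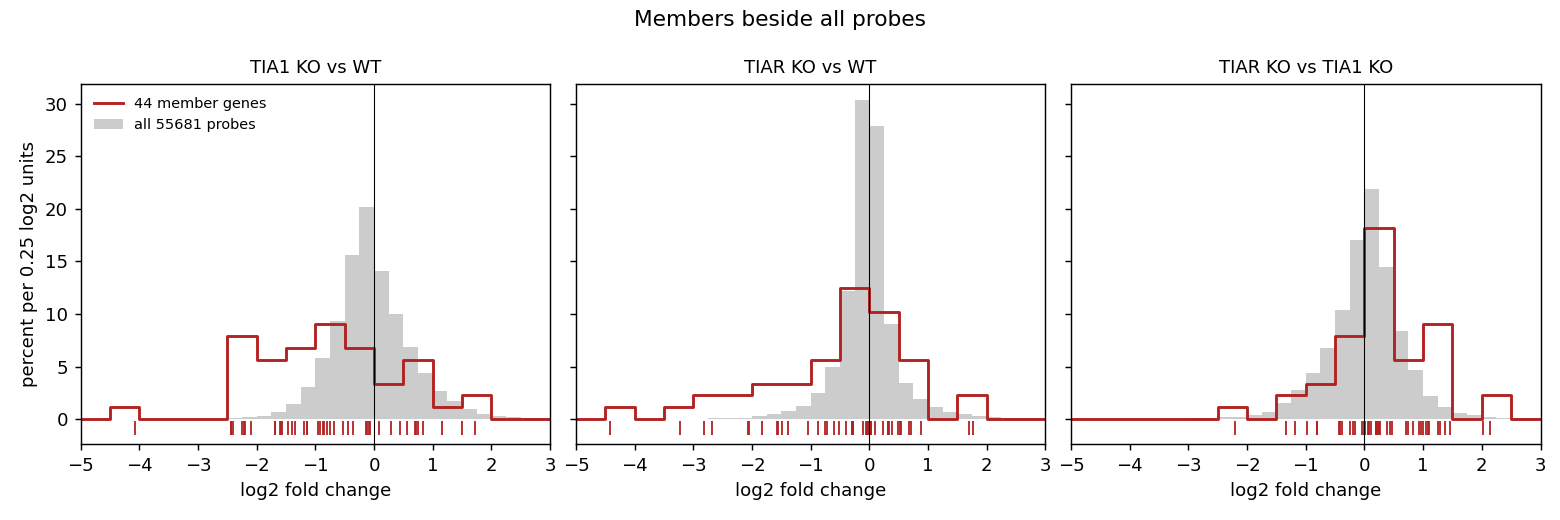
Distribution of log2 fold changes in the 3 comparisons (percent of features per 0.25 log2 units, with members counted in bins of 0.5), for all 55681 probes in grey and for the 44 member genes in red, with a tick for each gene. Fitted values are drawn, also for probes near background. In TIA1 KO vs WT the members reach down to -4.08 and in TIAR KO vs WT to -4.42, with medians of -0.85 and -0.28.

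The ISG15 system and single effectors of other families formed a group of 7 genes. Of these, 6 were called lower in TIA1 KO cells and 6 in TIAR KO cells. ISG15 is a ubiquitin-like protein that is attached to other proteins. The Isg15 probe had 14.09 and 13.99 for WT, 11.97 and 11.70 for TIA1 KO and 9.37 and 9.87 for TIAR KO cells. WT MEF were highest, TIAR KO MEF lowest, and no 2 groups overlapped. The log2 fold change was -2.21 ± 0.18 (SE, limma adjusted p = 0.0165) in TIA1 KO MEF and -4.42 ± 0.21 (adjusted p = 0.000546) in TIAR KO MEF. A second Isg15 probe, with 11.73 and 11.88 in WT MEF, gave -3.26 ± 0.41 and -4.37 ± 0.15.

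Usp18, the protease that removes ISG15 from proteins and dampens type I interferon receptor signalling, had 9.43 and 9.44 for WT, 6.83 and 7.16 for TIA1 KO and 7.45 and 7.30 for TIAR KO cells. Both knockouts were far below WT MEF and not well above background on any of their arrays. The falls were therefore given as limits, at least 3.59-fold in TIA1 KO MEF (limma adjusted p = 0.0149) and at least 4.18-fold in TIAR KO MEF (adjusted p = 0.00163). For such limits a dim array takes the lowest signal rated well above background there, unless the value of the probe itself was higher. Where it was higher on both arrays, the limit is the fitted fold change, as for Usp18 in TIAR KO MEF. Limits do not take in the spread between arrays.

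Rsad2 (viperin), which makes a nucleotide analogue that stops viral polymerases, and its neighbour Cmpk2, a mitochondrial nucleotide kinase, both fell in each knockout. Rsad2 had 8.74 and 8.76 for WT, 6.55 and 6.75 for TIA1 KO and 6.93 and 6.91 for TIAR KO cells. Cmpk2 had 8.43 and 8.34, 6.67 and 6.72, and 6.94 and 6.86 in the same order. For both genes WT MEF stood above both knockouts without overlap, and no knockout array was well above background. The fall of Rsad2 was at least 2.57-fold in TIA1 KO MEF (limma adjusted p = 0.0152) and at least 3.21-fold in TIAR KO MEF (adjusted p = 0.00206). That of Cmpk2 was at least 2.01-fold (adjusted p = 0.0203) and at least 2.48-fold (adjusted p = 0.00453). The Cmpk2 call in TIA1 KO MEF was kept in 9 of 13 alternatives. It was lost with the processed signal, where the fitted log2 fold change was -0.98 in place of -1.69 (limma adjusted p = 0.309). In TIAR KO MEF the processed signal gave -4.14 for Cmpk2, with a call. A second Cmpk2 probe was not well above background on any array.

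Bst2 (tetherin), a membrane protein that holds budding virus particles at the cell surface, was bright on all arrays. It had 14.47 and 14.68 for WT, 12.83 and 12.94 for TIA1 KO and 11.79 and 12.01 for TIAR KO cells. The 3 groups did not overlap, with TIAR KO MEF lowest. Its log2 fold change was -1.69 ± 0.17 (SE, limma adjusted p = 0.0249) in TIA1 KO MEF and -2.67 ± 0.17 (adjusted p = 0.00116) in TIAR KO MEF. Between the knockouts, the Bst2 difference of -0.985 ± 0.171 was not called (limma adjusted p = 0.0718). The sign of that difference was kept in 12 of 13 alternatives (from -1.096 to 0.166). With arrays scaled to a common median the order turned, at -3.26 for TIA1 KO cells and -3.1 for TIAR KO cells against WT MEF.

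Isg20, an RNA exonuclease, had 14.29 and 14.37 for WT, 12.03 and 12.20 for TIA1 KO and 14.25 and 12.90 for TIAR KO cells. TIA1 KO MEF lay clearly below WT MEF, and the 2 TIAR KO arrays differed widely from each other. It fell in TIA1 KO MEF by 2.22 ± 0.16 (SE, limma adjusted p = 0.0133), and had -0.76 ± 0.44 (adjusted p = 0.440) in TIAR KO MEF. A second probe gave 12.90 and 13.41, 10.35 and 10.65, and 12.74 and 13.27 in the 3 groups, so that TIAR KO and WT MEF overlapped. Xaf1, a partner of the inhibitor of apoptosis XIAP, had 9.51 and 10.01 for WT, 7.91 and 8.43 for TIA1 KO and 8.48 and 7.89 for TIAR KO cells. Both knockouts lay below WT MEF, at -1.59 ± 0.29 in TIA1 KO cells (adjusted p = 0.0749, not called) and -1.58 ± 0.28 in TIAR KO cells (adjusted p = 0.0308). The latter call was kept in 9 of 13 alternatives. It was lost without WT replicate 2 (-1.33), without TIAR KO replicate 2 (-1.28) and with the processed signal (-1.96, limma adjusted p = 0.083). With all 3 groups in 1 fit the adjusted p of Xaf1 was 0.0507, and the call was lost there too. The second Xaf1 probe was not well above background on any array.

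**Figure D4:**
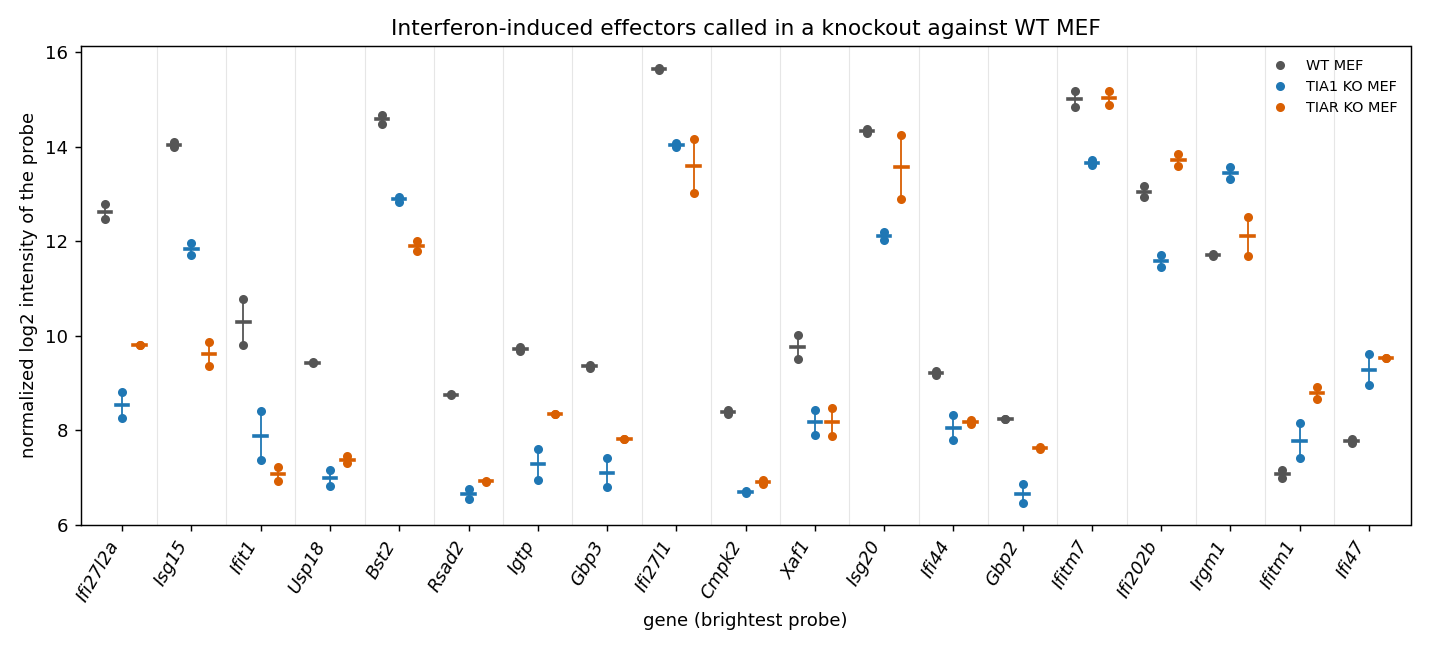
Normalized log2 intensity on each array (points, with a bar at the mean of the 2 arrays) of the 19 member genes called in a knockout against WT MEF, read from the brightest probe and ordered by mean fold change. WT MEF (grey) stand above both knockouts for genes such as Ifi27l2a, Isg15 and Bst2, and below the called knockout for Irgm1, Ifitm1 and Ifi47. Heights of different genes come from different probes and are not comparable.

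The 3 IFIT genes, whose products bind foreign RNA, differed from each other. Ifit1, which recognizes RNA caps that lack the host's methylation, had 10.78 and 9.81 for WT, 7.37 and 8.40 for TIA1 KO and 6.92 and 7.23 for TIAR KO cells. WT MEF were highest in spite of a wide gap between their arrays. The fitted fall was 9.32-fold in TIAR KO MEF (log2 fold change -3.22 ± 0.34, limma adjusted p = 0.00611), where neither array was well above background. Over the alternatives it ranged from -5.952 to -2.738. TIA1 KO MEF had -2.41 ± 0.50 (adjusted p = 0.0902, not called). Ifit3 had 8.62 and 8.23, 7.90 and 8.77, and 8.13 and 8.16 in WT, TIA1 KO and TIAR KO MEF, with TIA1 KO MEF on both sides of WT MEF. Its log2 fold changes were -0.09 ± 0.36 and -0.28 ± 0.18. Ifit2, with 10.48 and 11.02 in WT MEF, had 0.45 ± 0.26 and 0.53 ± 0.22, and neither gene was called. Thus Ifit1 and Ifit3, whose promoters both held 2 ISRE cores, differed in their calls in TIAR KO MEF, though the difference between the genes was not tested.

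Among the 6 IFITM genes, which encode small membrane proteins of which several hinder virus entry, 1 was called in each comparison. Ifitm1 had 7.17 and 7.00 for WT, 7.41 and 8.15 for TIA1 KO and 8.91 and 8.66 for TIAR KO cells. It was above background on both arrays in TIAR KO MEF only, where it was at least 3.23-fold higher than in WT MEF (limma adjusted p = 0.00482), and its second probe was called as well (1.03 ± 0.14). Ifitm3 was bright throughout, with 14.76 and 14.65 for WT, 15.03 and 14.97 for TIA1 KO and 15.08 and 15.33 for TIAR KO cells. The differences of 0.29 ± 0.15 and 0.50 ± 0.16 were not called, and those of Ifitm2, 0.09 ± 0.18 and 0.53 ± 0.17, were not either. Ifitm7 had 14.83 and 15.18 for WT, 13.61 and 13.71 for TIA1 KO and 14.89 and 15.17 for TIAR KO cells. It was lower in TIA1 KO MEF alone of the 2 knockouts (-1.34 ± 0.19, limma adjusted p = 0.0496), but its second probe, with 9.04 and 8.88 in WT MEF, had 0.20 in the same comparison (adjusted p = 0.519), so the probes disagreed. The call of the first was lost in 8 of 13 alternatives, among them the authors' log2 values (-1.32, adjusted p = 0.0658). Ifitm5 was well above background on 3 of the arrays and Ifitm6 on 1, and neither was called.

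The guanylate binding proteins, large GTPases that attack the vacuoles of pathogens, were mostly dim. Of the 11 genes, 2 were called lower in TIA1 KO cells and 1 in TIAR KO cells, and none was called higher. Gbp3 had 9.39 and 9.32 for WT, 6.80 and 7.41 for TIA1 KO and 7.81 and 7.81 for TIAR KO cells. Both knockouts lay below WT MEF without overlap. The fall was at least 3.11-fold in TIA1 KO MEF (limma adjusted p = 0.0329), with a log2 fold change of -1.55 ± 0.14 in TIAR KO MEF (adjusted p = 0.00362). Gbp2 had 8.24 and 8.23, 6.46 and 6.86, and 7.61 and 7.65 in the 3 groups. The limit for TIA1 KO MEF was a fall of at least 1.73-fold (adjusted p = 0.0406), and TIAR KO MEF had -0.61 ± 0.14 (adjusted p = 0.0669, not called). The Gbp2 call in TIA1 KO MEF was lost in 5 of 13 alternatives, among them an intensity trend in limma (adjusted p = 0.0598) and the processed signal, where the fitted log2 fold change was -0.85 in place of -1.57 (adjusted p = 0.321). Gbp5 had -1.40 ± 0.30 in TIA1 KO cells and -0.30 ± 0.20 in TIAR KO cells, and Gbp10 had 0.72 ± 0.33 and 0.34 ± 0.18. Gbp1 (Gbp2b in RefSeq), Gbp4, Gbp6, Gbp7, Gbp8, Gbp9 and Gbp11 were not called, and 5 of them were not well above background on any array with their brightest probe. These genes are close paralogs, and hybridization of 1 gene's RNA to another's probe was not tested.

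Immunity-related GTPases, which act with the guanylate binding proteins, moved in both directions. Igtp (Irgm3) had 9.67 and 9.77 for WT, 6.96 and 7.60 for TIA1 KO and 8.34 and 8.34 for TIAR KO cells. WT MEF were highest and TIA1 KO MEF lowest, with no overlap. The fall was at least 3.74-fold in TIA1 KO MEF (limma adjusted p = 0.0298), and the log2 fold change was -1.38 ± 0.14 in TIAR KO MEF (adjusted p = 0.00544). Irgm1, which restrains the other immunity-related GTPases, had 11.69 and 11.73 for WT, 13.31 and 13.56 for TIA1 KO and 12.52 and 11.68 for TIAR KO cells. It rose in TIA1 KO MEF by 1.72 ± 0.17 (adjusted p = 0.0248), and the TIAR KO arrays lay on both sides of WT MEF. Its second probe rose by 1.42 ± 0.17 in TIA1 KO MEF (adjusted p = 0.0370). With arrays scaled to a common median, without quantile normalization, the difference of the brightest probe was 0.17 (adjusted p = 0.804).

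Ifi47, another GTPase of this family, had 7.81 and 7.74 for WT, 9.61 and 8.95 for TIA1 KO and 9.54 and 9.53 for TIAR KO cells. All 4 knockout arrays exceeded both WT arrays, and the rise was called in TIAR KO MEF (1.76 ± 0.14, limma adjusted p = 0.00240) and not in TIA1 KO MEF (1.50 ± 0.27, adjusted p = 0.0742). Iigp1 had 8.13 and 7.75 for WT, 7.53 and 7.31 for TIA1 KO and 7.81 and 7.51 for TIAR KO cells, a small spread with no call. Tgtp1 was not well above background on any array. Of the Mx GTPases, which block viral nucleoproteins, Mx2 had 8.06 and 7.78 for WT, 6.84 and 7.17 for TIA1 KO and 7.22 and 7.20 for TIAR KO cells. WT MEF were highest, no knockout array was well above background, and the differences (at least 1.25-fold and 1.63-fold) were not called. Mx1 had 6.90 and 6.84, 8.46 and 7.61, and 7.03 and 6.66 in the 3 groups, and was well above background only on 1 TIA1 KO array.

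Of the 3 Ifi200 genes, whose products bind DNA through HIN domains, Ifi202b was called in TIA1 KO MEF. It had 13.16 and 12.93 for WT, 11.70 and 11.46 for TIA1 KO and 13.84 and 13.60 for TIAR KO cells. The 3 groups did not overlap, with TIA1 KO MEF lowest and TIAR KO MEF highest. The log2 fold change was -1.47 ± 0.19 (SE, limma adjusted p = 0.0400) in TIA1 KO MEF and 0.67 ± 0.17 (adjusted p = 0.0891, not called) in TIAR KO MEF. The call in TIA1 KO MEF was lost with the authors' log2 values (-1.50, adjusted p = 0.0505) and with an offset of 16 in the background correction (-1.47, adjusted p = 0.0533). The 4 probes of Ifi203 disagreed and none was called. The brightest, not well above background in TIA1 KO MEF, was at least 2.28-fold lower there (adjusted p = 0.0710) and had -0.11 ± 0.22 in TIAR KO MEF. Of the other Ifi203 probes, the next brightest had -0.80 ± 0.36 in TIA1 KO cells and another 0.95 ± 0.83, each well above background on 1 TIA1 KO array, and all 3 lay above 0 in TIAR KO cells, from 0.33 to 0.45. Ifi204, a DNA sensor, had -0.79 ± 0.15 and -0.04 ± 0.15, without a call either. The Ifi200 genes are also close paralogs.

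Of the 6 remaining Ifi genes, 2 were called lower in TIA1 KO cells and 3 in TIAR KO cells. Ifi27l2a, which encodes a small membrane protein of the Ifi27 family, had 12.47 and 12.78 for WT, 8.27 and 8.82 for TIA1 KO and 9.81 and 9.80 for TIAR KO cells. WT MEF stood far above both knockouts, by a log2 fold change of -4.08 ± 0.26 (SE, limma adjusted p = 0.0103) in TIA1 KO MEF and of -2.82 ± 0.17 (adjusted p = 0.000989) in TIAR KO MEF. Ifi27l1 (Ifi27 in RefSeq) had 15.67 and 15.62 for WT, 13.99 and 14.08 for TIA1 KO and 14.16 and 13.03 for TIAR KO cells. It fell by 1.61 ± 0.15 (adjusted p = 0.0225) and 2.05 ± 0.37 (adjusted p = 0.0351). The Ifi27l1 call in TIA1 KO MEF was lost in 5 of 13 alternatives, among them the fit of all 3 groups together (adjusted p = 0.0508). Without WT replicate 1 (-2.02, adjusted p = 0.109) or WT replicate 2 (-2.08, adjusted p = 0.0966) its call in TIAR KO MEF was lost with a like fold change, the spread then coming from the TIAR KO arrays alone.

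Ifi30, a lysosomal thiol reductase of antigen processing, had 13.73 and 13.72 for WT, 12.79 and 12.73 for TIA1 KO and 13.98 and 14.11 for TIAR KO cells. Ifi35, a leucine zipper protein, had 11.65 and 11.82, 11.16 and 10.94, and 11.99 and 11.97 in the same order. For both genes TIA1 KO MEF were lowest and TIAR KO MEF highest, without overlap. Neither gene was called against WT MEF, with adjusted p from 0.0566 to 0.465 by limma. The difference between TIAR KO and WT MEF kept its sign in 11 of 13 alternatives for Ifi30 (from -0.096 to 0.393). For Ifi35 the sign was kept in 12 of 13 (from -0.168 to 0.324). Ifi44, not well above background in TIA1 KO cells, was at least 2.22-fold lower there without a call (adjusted p = 0.0874), and had -1.04 ± 0.14 in TIAR KO cells (adjusted p = 0.0145). The call in TIAR KO MEF was lost without any 1 of its 4 arrays, with fold changes from -0.99 to -1.08 on the log2 scale and adjusted p from 0.0538 to 0.0754, and with all 3 groups in 1 fit (Ifi44 adjusted p = 0.0562). Ifi27l2b was not well above background in TIA1 KO cells and had 0.88 ± 0.19 in TIAR KO cells, without a call in either. Isg20l2, a nucleolar exonuclease that matched the rule through its name, had -0.75 ± 0.18 and -0.51 ± 0.16, without a call. A second Isg20l2 probe had -0.99 in TIAR KO MEF (adjusted p = 0.0245), under the 2-fold change that a call needs.

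The knockouts were then compared directly, without the WT arrays. In TIAR KO MEF against TIA1 KO MEF, 5 of the 64 member probes (7.81%) were called higher, against 1.72% of all probes, and 1 (1.56%) lower, against 1.63% of all probes. The 5 higher probes were both probes of Ifi202b, 1 of the 2 probes of Isg20, and the brightest probes of Ifitm7 and Ifi30, and the lower probe was that of Isg15. The log2 difference was -2.21 ± 0.25 for Isg15 (SE, limma adjusted p = 0.0323), 2.14 ± 0.19 for Ifi202b (adjusted p = 0.0203), 1.37 ± 0.18 for Ifitm7 (adjusted p = 0.0441) and 1.29 ± 0.16 for Ifi30 (adjusted p = 0.0374). For Isg20 the second probe differed by 2.50 ± 0.26 (adjusted p = 0.0279) and the brightest by 1.46 ± 0.49 (adjusted p = 0.196). The second Isg15 probe had -1.10 (adjusted p = 0.220), and the second Ifitm7 probe 0.22 (adjusted p = 0.530). The median of the 44 genes was 0.23, or 0.20 with the 9 genes that had only a limit set at it, and that of all probes 0.05. Over all probes well above background in a group the median was also 0.23, and over the 35 such member genes 0.38.

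Several genes called in 1 knockout against WT MEF were not called between the knockouts. The log2 difference between TIAR KO and TIA1 KO MEF was 0.01 ± 0.31 for Xaf1 (limma adjusted p = 0.983), -1.33 ± 0.34 for Irgm1 (adjusted p = 0.134) and 0.26 ± 0.27 for Ifi47 (adjusted p = 0.583). Without TIAR KO replicate 1 or without TIAR KO replicate 2, limma called 0 member probes and 0 of all probes between the knockouts, with 18 and 15 member probes at an unadjusted p under 0.05. The spread then came from the TIA1 KO arrays alone, and the log2 differences of the 4 called genes moved by at most 0.25.

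Other genes of the interferon pathway were read from 4 fixed lists with 55 genes. None of the 8 ligands and receptors was called in either knockout. Ifnb1, Ifna4 and Ifng were not well above background on any array, and Ifna2 was above it on 1 WT array and both TIAR KO arrays by its brightest probe. The receptor genes Ifnar1, Ifnar2, Ifngr1 and Ifngr2 were well above background on all arrays. Of 12 signalling genes, 2 were called lower in each knockout. These were Irf7, a transcription factor that drives interferon genes, and Socs1, an inhibitor of the receptor kinases. Irf7 had 8.88 and 8.93 for WT, 6.82 and 7.31 for TIA1 KO and 7.39 and 7.25 for TIAR KO cells. Irf1 was called higher in TIAR KO MEF (1.10 ± 0.14, limma adjusted p = 0.0115). Stat2, a transcription factor of the type I response, had -0.09 ± 0.16 and 0.48 ± 0.14, without a call.

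Of 9 nucleic acid sensors, none was called in TIA1 KO MEF. In TIAR KO MEF Ifih1, the RNA sensor MDA5, was lower (-1.69 ± 0.14, limma adjusted p = 0.00309) and Aim2, a DNA sensor, was higher (1.48 ± 0.16, adjusted p = 0.00597). A second Ifih1 probe disagreed, with 7.82 and 7.79 for WT and 9.55 and 6.69 for TIAR KO cells (0.31 ± 0.89, adjusted p = 0.906). Of 26 other interferon-induced genes, 8 (30.8%) were called lower and 1 higher in TIA1 KO MEF, and 13 (50%) lower and 0 higher in TIAR KO MEF. Of all probes, 1.36% and 2.37% were called lower, and 2.18% and 3.39% higher. The median log2 fold changes of the 26 genes were -1.26 and -1.15, or -0.97 and -1 with genes that had only a limit set at it. Those of all probes were -0.09 and -0.02. Oas1a, a sensor of double-stranded RNA, had 12.26 and 13.10 for WT, 9.89 and 9.68 for TIA1 KO and 6.82 and 6.99 for TIAR KO cells. The 3 groups did not overlap, and it was also called lower in TIAR KO than in TIA1 KO MEF, by at least 6.84-fold (limma adjusted p = 0.00989). A second Oas1a probe was not well above background in either knockout. Oasl1 (at least 4.79-fold, adjusted p = 0.0154) and Samd9l (-1.26 ± 0.17, adjusted p = 0.0446) were called lower in that direct comparison too, the latter by 1 of 2 probes.

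Genes of antigen processing and the chemokine Cxcl10 were in the same list. Psmb8 and Psmb9, subunits of the immunoproteasome, fell by at least 6.21-fold and 4.72-fold in TIA1 KO cells and had log2 fold changes of -2.70 ± 0.31 and -2.28 ± 0.23 in TIAR KO cells, all called. For Psmb9 the 4.72-fold was the fitted value. Nlrc5, which drives MHC class I genes, had 10.25 and 10.05 for WT, 7.03 and 7.61 for TIA1 KO and 7.17 and 7.06 for TIAR KO cells. Both knockouts lay near background and were called lower. A second Nlrc5 probe was called lower in TIA1 KO MEF (at least 1.74-fold, limma adjusted p = 0.0338). In TIAR KO MEF its fitted change was under 2-fold, without a call. Cxcl10 had 13.29 and 13.65 for WT, 11.06 and 11.06 for TIA1 KO and 9.62 and 10.54 for TIAR KO cells. It was called lower in both (-2.41 ± 0.19 and -3.39 ± 0.33), whereas a second Cxcl10 probe, well above background on 1 WT array alone, was called in neither. Oas3 and Parp14 were called lower in both knockouts, Trim25 in TIA1 KO MEF by 1 of its 2 bright probes, and Oas2, Oasl1, Oasl2, Samd9l, Trim30a and Tap1 in TIAR KO MEF. The Trim25 probes disagreed, with -1.38 and 0.09 (adjusted p = 0.790 for the second). Herc6 was called lower in TIA1 KO MEF by its second probe only (at least 2.68-fold, limma adjusted p = 0.0338). Its brightest probe was at least 3.11-fold lower there without a call (adjusted p = 0.0776), and neither probe was called in TIAR KO MEF. Lgals3bp was called higher in TIA1 KO MEF (1.47 ± 0.15, limma adjusted p = 0.0258), and its second probe had 1.43 ± 0.33 (adjusted p = 0.103). As for the members, no gene of these lists was called in TIA1 KO MEF in the fits with 1 WT array.

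**Figure D5:**
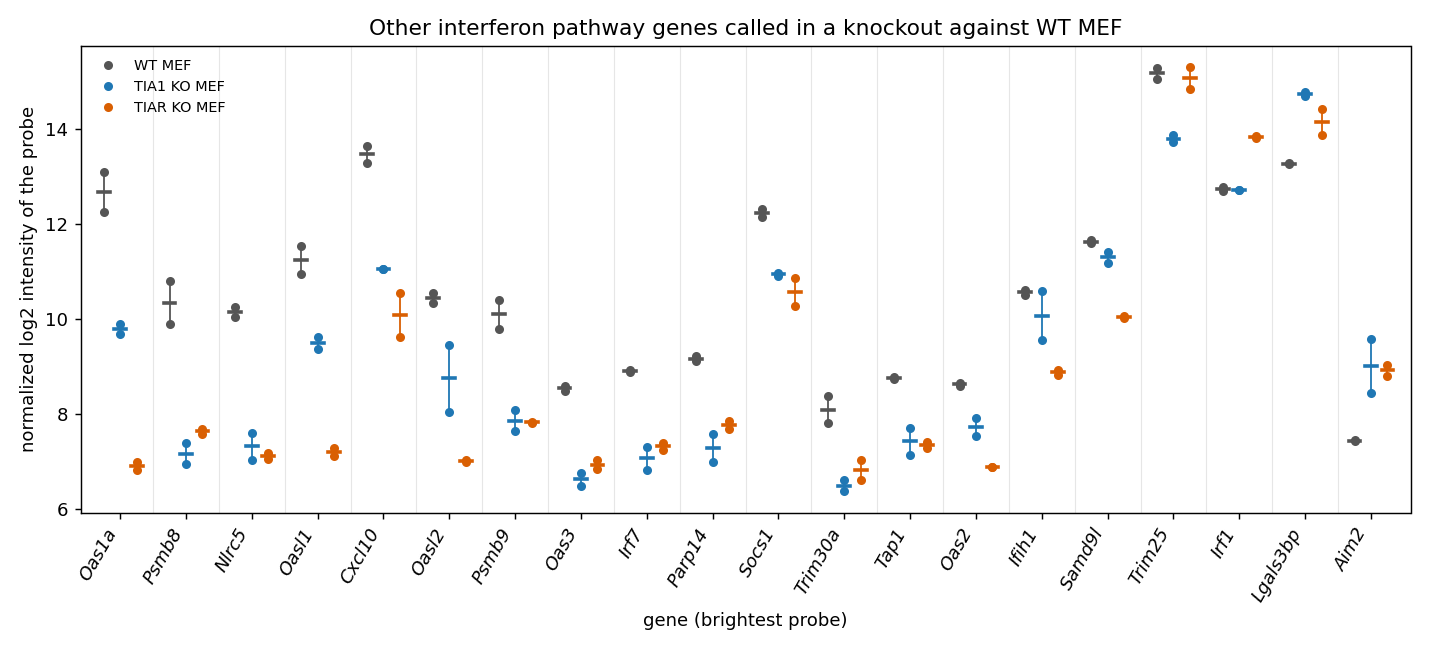
Normalized log2 intensity on each array (points, with a bar at the mean of the 2 arrays) of the 20 other interferon pathway genes called in a knockout against WT MEF, ordered by mean fold change. WT MEF (grey) stand above both knockouts for genes such as Oas1a, Psmb8, Nlrc5 and Cxcl10, and below the called knockout for Irf1, Lgals3bp and Aim2. Heights of different genes come from different probes and are not comparable.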

How the data were processed

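Mouse arrays with 1 dye measured RNA of the 3 MEF groups, on 2 arrays each. The authors deposited the intensity of every spot with its local background and flags, as the scanner software measured it, with probe positions on mm9, and normalized log2 values, for which the labels name limma. Members and lists were chosen with earlier results of these data known.

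Mean intensities were corrected by normexp (offset 50) against the median local background, log2-transformed, smoothed with loess (1 pass) and quantile normalized. Control and outlier spots were left out and spots of a probe averaged. Well above background means that the scanner software rated 50% or more of a probe's spots so. For each comparison limma (lmFit, then eBayes) used only its 4 arrays and all 55681 probes, with Benjamini-Hochberg adjustment. The knockouts were compared with each other without the WT arrays. The deposited log2 values served as an alternative and correlated at 0.997 to 0.999 with the values used. They share the scale, with array medians of 7.22 or 7.23. RefSeq names were found for 27237 of the 29252 probes with an accession, and used for names and promoters. The function was tested on simulated data.

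The genes given on each array were up to 10 called members with the largest change in each direction, a fixed set of well-known members, and the targeted genes. Other genes given on each array were chosen after their values were seen. Replicate numbers were not treated as pairs. Deviations of same-numbered arrays correlated at 0.078, 0.0302 and -0.0729, which cannot show whether the samples were paired. The arrays held 16021 to 26295 probes with such signal, and their small number limits the precision. R 4.3.3, limma 3.58.1, Python 3.11.15, pandas 2.3.3, numpy 2.4.6 and matplotlib 3.10.9 were used.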

Additional observations from a re-analysis of the deposited data

Results flagged for a closer look

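In the direct comparison of the knockouts, 4 member genes differed by the test of the difference itself. The log2 difference, TIAR KO minus TIA1 KO MEF, was -2.21 for Isg15, 2.14 for Ifi202b, 1.37 for Ifitm7 and 1.29 for Ifi30. Without either TIAR KO array nothing was called on the whole array, the spread then coming from the TIA1 KO arrays alone, and the 4 differences moved by at most 0.25. Ifitm7 and Ifi30 lost their call with the authors' log2 table. Isg15 lost it with arrays scaled to a common median (-1.09, limma adjusted p = 0.112). No group has enough arrays for a test of single outlying arrays.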

How the results depend on the processing

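None of the called member genes changed direction under any alternative, in the comparison where it was called. Sizes moved more. With a common array median the log2 fold change in TIA1 KO MEF went from -2.21 to -3.71 for Isg15. It went from -1.61 to -3.19 for Ifi27l1, and from 1.72 to 0.165 for Irgm1. In TIAR KO against WT MEF the counts of member probes stayed within 1.5 times of 3 higher and 13 lower throughout. In TIA1 KO against WT MEF they went from 2 higher and 16 lower to 1 and 11 with the authors' log2 table, to 0 and 0 with the processed signal at the 75th percentile, to 0 and 31 with a common array median, and to 0 and 6 with a replicate block. Leaving out 1 array gave 0 to 6 higher and 0 to 23 lower. In TIAR KO against TIA1 KO MEF, the 5 higher and 1 lower became 1 and 1 with the authors' table, 0 and 0 with the processed signal (30 at an unadjusted p under 0.05 by limma) or a replicate block (25), and 18 and 0 with a common median. There were 3 higher with a normexp offset of 16 or without loess, and 8 with only probes well above background or all 3 groups in 1 fit. Leaving out 1 array gave 0 to 13 higher and 0 to 4 lower. Over all probes, calls ranged from 0 to 15801 for TIA1 KO against WT MEF (1969 as reported) and from 0 to 10086 between the knockouts (1866). The common median moved the all-probe median of TIA1 KO against WT MEF to -0.67, the processed signal to 1.98. The members' median was then -0.88 and -2.58 relative to all probes. With the common median the share of higher among all calls was 11.9% in TIA1 KO MEF (61.6% as reported), 34.4% in TIAR KO MEF (58.8%) and 87.2% between the knockouts (51.3%, or 8.28% with the processed signal). The causes were not tested. Whether same-numbered replicates are pairs is not known, and the block changed neither count of member probes in TIAR KO against WT MEF. For single genes, 96 of 416 alternative values lost their call. Signal over background limits the dim genes, above all on the TIA1 KO arrays.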

Other observations

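The median absolute difference between the 2 arrays over the 44 member genes was 0.124 for WT, 0.179 for TIAR KO and 0.272 for TIA1 KO cells, on the log2 scale. Over the 35 genes with signal well above background in at least 1 group it was 0.167, 0.166 and 0.269. The brightest Ifnar1 probe, for a subunit of the type I interferon receptor, had 14.97 and 10.75 for WT, 11.52 and 11.67 for TIA1 KO and 11.42 and 9.21 for TIAR KO cells. Its WT arrays lay further apart than the groups, and it was chosen after its values were seen.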
